A study of Mus musculus with 4 samples.

Results

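The genes described here are 10 members of the BCL2 family, taken by gene name from a table of 115220 transcripts and 47729 genes of mouse neutrophils. The anti-apoptotic members are Mcl1, Bcl2, Bcl2l1 and 3 copies of Bcl2a1 (Bcl2a1a, Bcl2a1b and Bcl2a1d). The pro-apoptotic members are Bax, Bak1, Bid and Bcl2l11. The table lists 34 transcripts for these 10 genes. Values were read per transcript and summed per gene, and the Bcl2a1 copies were also summed.

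BCL2 family proteins decide whether the outer membrane of the mitochondrion stays intact. BAX and BAK form pores in that membrane, through which cytochrome c leaves and starts the caspase cascade. Anti-apoptotic proteins such as MCL1, BCL-XL (the product of Bcl2l1) and A1 (the products of the Bcl2a1 genes) hold the pore formers and their activators in check, and BH3-only proteins such as BIM (the product of Bcl2l11) and BID release or activate them. Neutrophils live briefly, and MCL1, a protein with a fast turnover, is known as a main survival factor of these cells.

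Neutrophils had been sorted by flow cytometry from bone marrow and spleen of BALB/c SKG mice 8 weeks after curdlan, and total RNA was sequenced in 4 libraries. There were 2 libraries from wild-type SKG mice and 2 from Mif KO (Mif -/-) SKG mice, so both groups carried the SKG background and both had received curdlan. SKG mice have a mutated Zap70, a kinase of T cell receptor signalling, and develop arthritis when given curdlan, a beta-glucan. Mif encodes macrophage migration inhibitory factor, a cytokine. The comparison asks how neutrophil RNA differs when Mif is absent. There was no untreated group, the proportion of marrow to spleen cells was not given, and the labels do not say whether the 2 libraries of a group came from separate animals. The p-values therefore measure only the spread between these libraries, which may be technical.

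Values are FPKM, fragments per kilobase of transcript, scaled to the mapped fragments of the library, so levels can be compared between genes. The knocked-out gene, Mif (chr10:75859353-75860240, minus strand), had 0.882 FPKM in wild-type replicate 1 and 2.88 FPKM in wild-type replicate 2 and was listed at 0 in both knockout libraries. The difference had an adjusted p of 0.161 (limma). Summed over 13 neutrophil markers, FPKM ranged from 109288 to 115341 over the libraries. Of these 11 were tested, and 1 passed, Ly6g (higher in knockout, adjusted p 0.0364, limma), against 0.342% of all genes. The genotypes did not overlap for 8 of the 11 (6 higher and 2 lower), against 52.8% of all genes (29.6% higher and 23.1% lower). Markers of B and plasma cells summed to 205 and 172 FPKM in wild type against 36.1 and 42.1 FPKM in knockout, with 8 of 9 lower. The 4 that were tested all passed (limma), against 0.342% of all genes. Erythroid markers summed to 4.94 and 20.5 against 16.7 and 16.3 FPKM (7 of 8 genes higher), monocyte and macrophage markers to 33.0 and 48.3 against 40.0 and 44.9 FPKM (7 of 10 higher), and T and NK cell markers to 62.3 and 72.8 against 64.1 and 64.6 FPKM (5 of 8 lower, Trac at 0 in every library, and Cd3d nearly the whole sum). Wild-type replicate 1 was the lowest library for the erythroid and macrophage lists. The part of these cells in the values below was not tested. Relative depth, read from the smallest steps of the values, was 1.23 and 1 in the wild-type libraries and 5.28 and 4.83 in the knockout libraries, and the run names put wild type in lane 2 and knockout in lane 1. Genotype, depth and lane cannot be told apart.

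The Bcl2a1 copies are shown first as sequence because reads may have been divided among them. Their coding sequences of 519 bases, stop included, were 97.9% identical between Bcl2a1a and Bcl2a1b (11 differences), 98.7% between Bcl2a1a and Bcl2a1d (7 differences) and 98.8% between Bcl2a1b and Bcl2a1d (6 differences). The first 120 coding bases, from the GENCODE M21 transcripts on GRCm38, hold 7 of the 12 positions at which any copy differs, in capitals:
Bcl2a1a: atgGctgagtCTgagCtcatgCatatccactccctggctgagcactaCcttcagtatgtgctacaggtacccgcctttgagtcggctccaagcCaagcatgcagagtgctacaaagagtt
Bcl2a1b: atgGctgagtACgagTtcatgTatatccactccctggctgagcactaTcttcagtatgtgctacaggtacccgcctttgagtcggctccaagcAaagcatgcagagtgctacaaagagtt
Bcl2a1d: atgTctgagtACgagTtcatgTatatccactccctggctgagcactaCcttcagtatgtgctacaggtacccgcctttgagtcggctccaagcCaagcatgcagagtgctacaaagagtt
Of all 100-base windows of each annotated transcript, 43.5% in Bcl2a1a, 31.1% in Bcl2a1b and 54.7% in Bcl2a1d occur letter for letter in another copy. The values of single copies are therefore uncertain, and the sum is the safer measure. In addition, the annotated gene Gm29094 covers 8449 bases of Bcl2a1b on the same strand and stood at 0.215 to 0.533 FPKM.

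Splicing of Bak1 and Bcl2l11 is also shown as sequence, because these 2 genes had transcripts whose levels went different ways from the gene's sum. The annotated 7-exon transcript of Bak1 (ENSMUST00000025034) has a 20-base exon 5 (chr17:27021663-27021682, minus strand, GRCm38), here in capitals with 40 bases of coding exon on each side, above the same junction of the 6-exon transcript (ENSMUST00000078691), which lacks it:
Bak1, 7 exons: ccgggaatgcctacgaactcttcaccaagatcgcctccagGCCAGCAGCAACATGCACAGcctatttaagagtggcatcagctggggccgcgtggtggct
Bak1, 6 exons: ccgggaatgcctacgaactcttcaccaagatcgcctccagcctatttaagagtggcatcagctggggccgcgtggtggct
With the extra exon the annotated reading frame has 151 codons instead of 209, and its stop codon lies 89 bases before the last exon junction. The annotation calls that transcript a target of nonsense-mediated decay, the pathway that removes RNAs with an early stop.

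Bcl2l11 makes coding forms of different lengths by splicing. The stretch in capitals is the 168-base part of exon 2 (chr2:128128757-128128924, plus strand, GRCm38) that the 196-codon transcript keeps and the shorter coding forms skip, with 20 bases on each side:
Bcl2l11, 196 codons: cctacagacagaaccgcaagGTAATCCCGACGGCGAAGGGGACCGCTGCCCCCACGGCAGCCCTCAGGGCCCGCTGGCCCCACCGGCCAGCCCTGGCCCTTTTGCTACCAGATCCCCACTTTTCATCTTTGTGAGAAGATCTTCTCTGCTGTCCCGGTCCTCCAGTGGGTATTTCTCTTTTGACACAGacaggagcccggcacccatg
The 196-codon form has the length of BIM-EL, the 140-codon form that of BIM-L and the 110-codon form that of BIM-S, the splice forms of BIM known to differ in killing strength.

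Mcl1 was far above every other member, at 218 to 287 FPKM, followed by Bak1 at 29.4 to 36.7 FPKM. Bid (22.5 to 27.7 FPKM) and Bcl2l1 (18.1 to 23.3 FPKM) came next, with overlapping ranges. Bcl2l11 (8.95 to 9.72 FPKM) lay above Bax (4.12 to 5.56 FPKM) and Bcl2a1b (2.09 to 5.17 FPKM), and the ranges of the latter pair overlapped. Bcl2a1a (1.16 to 1.82 FPKM) and Bcl2a1d (0.813 to 1.20 FPKM) also overlapped, and Bcl2 was lowest, at 0.143 to 0.230 FPKM. All other neighbours in this order were separated in every library.

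**Figure D1:**
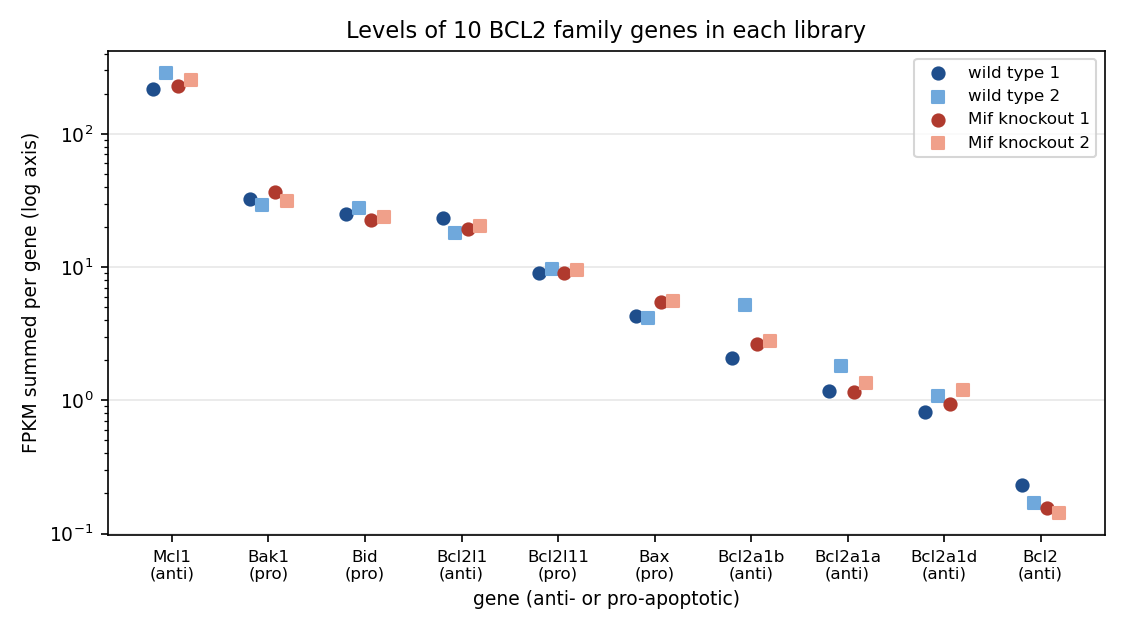
FPKM summed per gene (log axis) for the 10 members in each of the 4 libraries, ordered by median level; circles are replicate 1 and squares replicate 2, blue wild type and red Mif knockout. Mcl1 stands alone between 218 and 287 FPKM, and the 4 points of most genes lie close together, with the widest spread in Bcl2a1b.

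No member passed the test between genotypes. Of the 10 genes, 9 averaged 1 FPKM or more in wild type or knockout and were tested as log2(FPKM + 1) with limma over all 10221 such genes, and 0 had an adjusted p under 0.05. Over all genes tested 35 passed, or 0.342%, and over 8453 protein-coding genes 0.142%. At an unadjusted p under 0.05 there was 1 member, Bax, against 17.9% of all genes and 13.5% of protein-coding genes. The libraries of the 2 genotypes did not overlap for 2 of the 9 members, Bax (higher in knockout) and Bid (lower in knockout). That compares with 52.8% of all genes (29.6% higher and 23.1% lower) and 50.1% of protein-coding genes (33.7% higher and 16.5% lower). The difference was positive, higher in knockout, for 3 of the 9 members, against 54.2% of all genes and 60.9% of protein-coding genes, and its median was -0.05 for the members and 0.02 for all genes, in log2. Scaled to a sum of 1000000 FPKM per library, the difference was positive for 39.5% of all genes (median -0.05) and again for 3 of the 9 members. In bulk RNA, fewer cells of a type and less RNA per cell cannot be told apart.

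Mcl1 (ENSMUSG00000038612, chr3:95658788-95663176, plus strand) had 218 and 287 FPKM in wild type, against 227 and 254 FPKM in knockout neutrophils. Both knockout values lay between the wild-type values. The log2 difference, knockout minus wild type, was -0.06 ± 0.15 (SE, n = 2 and 2), with a 95% interval from -0.45 to 0.33 and an adjusted p of 0.859 (limma). Nearly all of it, 99.97% to 100% of the gene's FPKM, was the 3-exon transcript with 331 codons. A second annotated transcript of 285 codons never exceeded 0.0860 FPKM. Mcl1 supplied 88.8% and 91.6% of the summed FPKM of the anti-apoptotic members in wild type and 90.3% and 90.8% in knockout.

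Bcl2l1 (chr2:152780668-152831728, minus strand), the gene of BCL-XL, had 23.3 and 18.1 FPKM in wild-type cells, against 19.5 and 20.3 FPKM in knockout cells. Here too both knockout libraries lay between the wild-type libraries, and the log2 difference was -0.05 ± 0.13 (SE), adjusted p 0.882 (limma). The pair of transcripts that encode all 233 codons summed to 15.7 and 14.4 FPKM in wild-type cells, against 15.3 and 16.8 FPKM in knockout cells. They differ in their first exon, and the division between them was uneven: ENSMUST00000007803 had 13.3 and 7.80 against 8.03 and 11.2 FPKM. ENSMUST00000109820 had 2.39 and 6.59 against 7.25 and 5.55 FPKM. Wild-type replicate 1 stood apart from the other 3 libraries in the second of these.

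The Bcl2a1 copies encode A1, an anti-apoptotic protein induced by inflammatory signals in myeloid cells. Summed, they had 4.09 and 8.07 FPKM in wild-type cells, against 4.75 and 5.31 FPKM in knockout cells. The wild-type libraries lay at both ends and the knockout libraries between them. The log2 difference was -0.17 ± 0.28 (SE), with a 95% interval from -0.91 to 0.56 and an adjusted p of 0.784 (limma, over 10219 rows). Without wild-type replicate 1 it was -0.59, adjusted p 0.00013, and without wild-type replicate 2 it was 0.24, adjusted p 0.0650 (limma). Bcl2a1b (chr9:89199209-89207827, plus strand) was the highest copy, at 2.09 and 5.17 against 2.65 and 2.77 FPKM. Bcl2a1a (chr9:88956900-88962419, plus strand) had 1.18 and 1.82 against 1.16 and 1.35 FPKM. Bcl2a1d (chr9:88723285-88731914, minus strand) had 0.813 and 1.09 against 0.937 and 1.20 FPKM. None of the copies separated the genotypes, with adjusted p of 0.693 for Bcl2a1a, 0.746 for Bcl2a1b and 0.775 for Bcl2a1d (limma). Wild-type replicate 2 was the highest library for Bcl2a1a and Bcl2a1b.

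Bcl2 (chr1:106538178-106714274, minus strand), the founding member of the family, was at 0.230 and 0.170 FPKM in wild-type cells, against 0.155 and 0.143 FPKM in knockout cells. It was below the level required for the test. The knockout libraries were lower without overlap, and the values of its 2 transcripts show where: the 236-codon transcript had 0.106 and 0.124 against 0.115 and 0.106 FPKM, which overlap. The single-exon transcript of 199 codons had 0.125 and 0.0458 against 0.0397 and 0.0367 FPKM. Wild-type replicate 1 stood above the other 3 libraries for that transcript.

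Bax (chr7:45461697-45466898, minus strand), a pore former, was the member with the lowest p. It had 4.32 and 4.12 FPKM in wild-type cells, against 5.51 and 5.56 FPKM in knockout cells, from 1 transcript of 192 codons. Both knockout libraries were above both wild-type libraries, and the ratio of the means was 1.31. The log2 difference was 0.33 ± 0.08 (SE, n = 2 and 2), with a 95% interval from 0.12 to 0.53, an unadjusted p of 0.0098 and an adjusted p of 0.160 (limma). Bax thus did not pass. With a correction for GC content and length in the fit over genes the difference was 0.16 and the unadjusted p 0.205, and in the fit over transcripts 0.27 and 0.121 (limma). Without wild-type replicate 1 its adjusted p was 0.0080 and without wild-type replicate 2 it was 0.0192 (limma), in fits that called 26.0% and 28.8% of all genes.

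Bak1 (chr17:27019810-27029009, minus strand), the other pore former, stood above Bax in every library. Its level was 32.5 and 29.4 FPKM in wild-type cells, against 36.7 and 31.4 FPKM in knockout cells, which overlap, with a log2 difference of 0.13 ± 0.11 (SE) and an adjusted p of 0.568 (limma). The 6-exon transcript had 31.9 and 28.9 FPKM in wild-type cells, against 18.8 and 31.0 FPKM in knockout cells. The 7-exon transcript with the 20-base exon printed above had 0.326 and 0.281 FPKM in wild type, 17.7 FPKM in knockout replicate 1 and 0.238 FPKM in knockout replicate 2. That is 48.2% of the gene's FPKM in knockout replicate 1 and 0.759% to 1.00% in the other 3 libraries. The high share was thus seen in 1 of 2 knockout libraries. With coding transcripts only, the log2 difference of Bak1 was -0.32, opposite in sign to that of the whole gene. Bak1 is overlapped along its whole annotated span by Ggnbp1 on the opposite strand, at 1.54 to 1.93 FPKM, and the strand setting of the counting is not given in the sources used here.

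Bid (chr6:120891930-120916853, minus strand), which links death receptors to mitochondria, had 25.0 and 27.7 FPKM in wild-type cells, against 22.5 and 23.8 FPKM in knockout cells. Both knockout libraries were below both wild-type libraries. The log2 difference was -0.18 ± 0.09 (SE), with a 95% interval from -0.40 to 0.05, an unadjusted p of 0.098 and an adjusted p of 0.367 (limma). With GC content and length corrected over genes it was -0.17, unadjusted p 0.034 and adjusted p 0.225 (limma). The unadjusted p was 0.041 with libraries scaled over protein-coding genes and 0.040 with libraries centred on their medians (limma). Their adjusted p were 0.250 and 0.243 (limma). The separation was not seen in the main coding transcript, of 195 codons (ENSMUST00000004560), which had 16.8 and 15.3 FPKM in wild-type cells, against 15.3 and 18.2 FPKM in knockout cells. Summed over coding transcripts only, the log2 difference of Bid was 0.02. The lower values lay in other transcripts. A 458-base transcript without coding sequence (ENSMUST00000125915) had 1.62 and 1.48 against 0.460 and 0.683 FPKM, a log2 difference of -0.70 ± 0.15 (SE), unadjusted p 0.0095 and adjusted p 0.183 (limma). The transcript annotated for nonsense-mediated decay (ENSMUST00000160684) had 5.03 and 9.14 against 5.84 and 4.19 FPKM, with wild-type replicate 2 highest. It also holds a reading frame of 195 codons and was left out of the sum over coding transcripts. Together the transcripts of 195 codons had 21.8 and 24.5 against 21.1 and 22.3 FPKM, which overlap. The end of Bid overlaps Bcl2l13 by 913 bases on the opposite strand, and Gm44260, at 1.61 to 3.69 FPKM, overlaps it by 2094 bases on the same strand.

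Bcl2l11 (chr2:128126038-128162547, plus strand), the gene of BIM, had nearly the same level in all libraries, 8.95 and 9.72 FPKM in wild-type cells, against 8.99 and 9.44 FPKM in knockout cells. The log2 difference was -0.02 ± 0.08 (SE), with a 95% interval from -0.23 to 0.20 and an adjusted p of 0.931 (limma). Its transcripts did not share this flat pattern. The 196-codon transcript that keeps the 168-base stretch had 2.93 and 3.40 FPKM in wild-type cells, against 4.38 and 4.82 FPKM in knockout cells. That was 32.7% and 35.0% of the gene in wild type and 48.7% and 51.1% in knockout, without overlap. Its log2 difference was 0.43 ± 0.13 (SE), with a 95% interval from 0.07 to 0.78, unadjusted p 0.029 and adjusted p 0.224 over all transcripts (limma). Summed over coding transcripts only, the log2 difference of Bcl2l11 was 0.19.

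The other Bcl2l11 transcripts were lower in knockout or too low to read. A 391-base transcript without coding sequence (ENSMUST00000132201) had 2.01 and 1.87 against 0.984 and 1.08 FPKM, a log2 difference of -0.53 ± 0.12 (SE) and an adjusted p of 0.193 (limma). A 91-codon transcript (ENSMUST00000089634) had 2.22 and 2.31 against 1.70 and 1.93 FPKM, and a 1611-base transcript without coding sequence 1.31 and 1.59 against 1.23 and 1.30 FPKM. Neither had an unadjusted p under 0.05. The 140-codon form stood at 0.136 to 0.386 FPKM and the 110-codon forms together at 0.0319 to 0.274 FPKM. Reads in exons that these transcripts share are divided among them by estimation, so a shift between them does not count reads of one form.

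**Figure D2:**
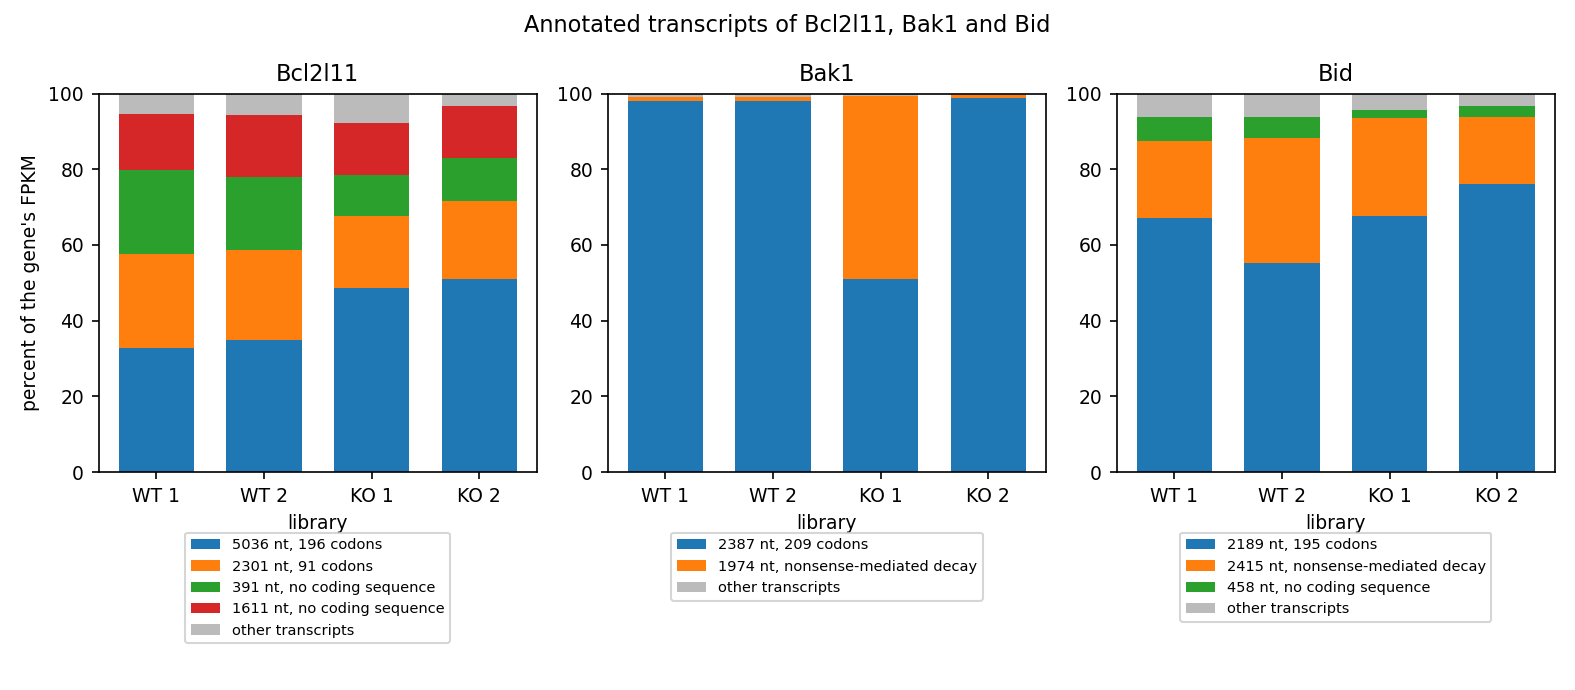
Share of each gene's FPKM (percent) by annotated transcript in the 4 libraries, for Bcl2l11, Bak1 and Bid. The 196-codon transcript of Bcl2l11 makes up 32.7% and 35.0% in wild type and 48.7% and 51.1% in knockout, and the 7-exon transcript of Bak1 makes up 48.2% in knockout replicate 1 and at most 1.00% elsewhere.

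Over the members' 34 transcripts, 18 reached 1 FPKM in a genotype's mean and were tested, and 0 passed at an adjusted p under 0.05, against 0.239% of the 19696 transcripts tested. An unadjusted p under 0.05 was found for 4 of the 18 (those of Bax, the 196-codon and 391-base ones of Bcl2l11 and the 458-base one of Bid), against 19.2% of all. The genotypes did not overlap for 6 of the 18, 2 of them higher and 4 lower in knockout, against 56.2% of all (24.2% higher and 32.0% lower). The 16 transcripts not tested reached at most 0.968 FPKM in any library. Across the table, short transcripts mostly had lower values in knockout: the median log2 difference of the 2443 tested transcripts of up to 600 bases was -0.29, with 19.4% positive, and that of the 2144 transcripts over 5000 bases was 0.03, with 56.2% positive. The 5036-base and the 391-base transcript of Bcl2l11 lie at the ends of this range. With GC content and length corrected, the difference of the former was 0.43 (unadjusted p 0.021, limma) and that of the latter -0.34 (unadjusted p 0.077, limma). The 458-base transcript of Bid had -0.45 (unadjusted p 0.038, limma). With Bax at 0.121 (limma), the Bax and 391-base transcripts were no longer under 0.05.

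**Figure D3:**
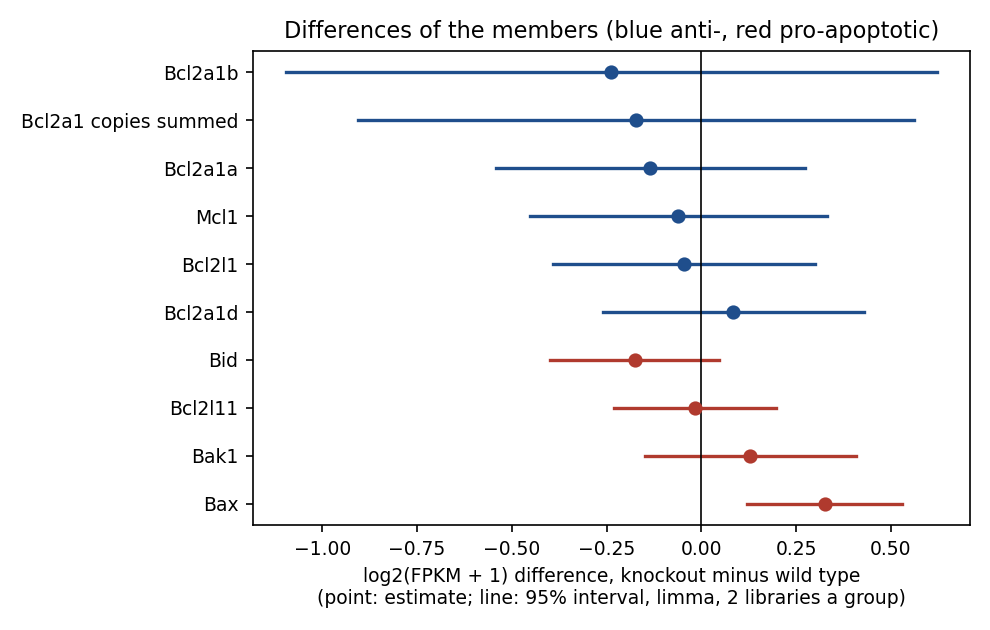
Difference in log2(FPKM + 1), knockout minus wild type, of the 9 tested members and of the summed Bcl2a1 copies; points are limma estimates and lines their 95% intervals, blue anti-apoptotic and red pro-apoptotic, 2 libraries a group. The interval of Bax, from 0.12 to 0.53, is the one that does not cross 0, before adjustment over all genes.

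Set against each other, the anti-apoptotic members summed to 246 and 314 FPKM in wild-type cells, against 251 and 280 FPKM in knockout cells. The pro-apoptotic members summed to 70.8 and 71.0 FPKM in wild-type cells, against 73.7 and 70.2 FPKM in knockout cells. The ratio of the sums was 3.48 and 4.42 in wild type and 3.41 and 3.98 in knockout, which overlap. In log2 the ratio was 1.97 ± 0.25 (SD, n = 2) in wild type and 1.88 ± 0.16 (SD, n = 2) in knockout. The difference of -0.09 was smaller than the pooled SD of 0.21. Because Mcl1 makes up most of the anti-apoptotic sum, the ratio follows it. Without Mcl1 the ratio was 0.390 and 0.371 in wild type and 0.331 and 0.366 in knockout, lower in both knockout libraries. The log2 difference was -0.13, with a pooled SD of 0.08. The pro-apoptotic sum of knockout replicate 1 includes 17.7 FPKM of the Bak1 transcript annotated for nonsense-mediated decay. That transcript had at most 0.326 FPKM in the other libraries. All ratios above count it. Without it, the ratio that leaves out Mcl1 would lie above both wild-type ratios in knockout replicate 1. The lower ratio in that library and the difference of -0.13 therefore rest on counting this transcript. No test was made of these ratios, since the members were chosen. By single genes, the difference was positive for 1 of 5 tested anti-apoptotic and 2 of 4 pro-apoptotic members, against 54.2% of all genes. The medians were -0.06 and 0.06 in log2. Of the 5, 3 are the Bcl2a1 copies, which share sequence and are not independent. The positive one was Bcl2a1d, while the summed copies had -0.17. Scaled to a sum of 1000000 FPKM per library, the median of the pro-apoptotic members turned to -0.01 and that of the anti-apoptotic members to -0.13. The counts of positive differences in both lists were the same.

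The replicates of wild type differed more than the genotype means for most members. A gap between 2 single libraries varies more than a difference between means of 2, so it is often larger without any genotype difference. The gap between the wild-type replicates exceeded the difference between genotypes for 7 of 9 members, and for 54.6% of all genes tested. The members' median absolute gap was 0.20 in log2 between wild-type replicates, 0.08 between knockout replicates and 0.13 between genotypes. Over all genes these medians were 0.15, 0.07 and 0.12. Bcl2a1b had the widest gap of a member, 0.99 in log2, and Bax and Bid were the 2 members whose genotypes differed more than either pair of replicates.

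**Figure D4:**
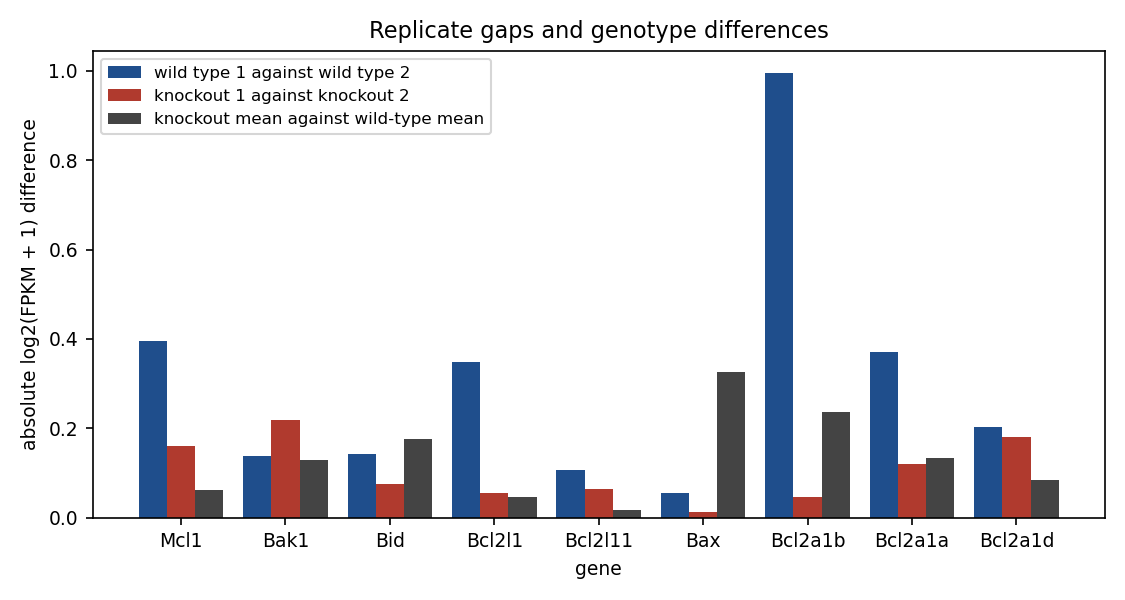
Absolute difference in log2(FPKM + 1) between the wild-type replicates, between the knockout replicates and between the genotype means, for the 9 tested members. The wild-type gap is the tallest bar for Bcl2a1b, at 0.99, and the genotype bar is the tallest for Bax and Bid.

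Leaving out wild-type replicate 1 moved 5 members past the threshold: Bax, and with negative differences Mcl1 (-0.26, adjusted p 0.0281), Bid (-0.25, adjusted p 0.0396), Bcl2a1a (-0.32, adjusted p 0.0389) and Bcl2a1b (-0.73, adjusted p 1.48e-05, all limma). The same fit called 2675 of 10301 genes, or 26.0%. Leaving out wild-type replicate 2 called 1 member, Bax, and gave Mcl1 a difference of 0.14 and Bcl2a1b one of 0.26, both opposite in sign. That fit called 2938 of 10219 genes, or 28.8%. In these fits the lone wild-type library is assumed to vary like the knockout libraries. Without either knockout library 0 genes of 10242 and of 10205 were called (0% in both). Mcl1 had a difference of 0.019 without knockout replicate 1. The sign of Mcl1 and of the summed Bcl2a1 copies thus turned when single libraries were left out.

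The remaining BCL2 family was read from a list of 16 genes, of which 8 were tested. None passed. An unadjusted p under 0.05 was found for 2 of 8, against 17.9% of all genes. Positive differences numbered 7 of 8, against 54.2% of all genes and 60.9% of protein-coding genes, and 6 of 8 were higher in knockout without overlap, against 29.6% and 33.7%. The median was 0.17 in log2. The BH3-only genes Pmaip1 and Bbc3, known targets of p53 whose proteins NOXA and PUMA neutralise anti-apoptotic members (NOXA chiefly MCL1 and A1), were those with the lowest p. Pmaip1 had 1.35 and 4.76 FPKM in wild-type cells, against 8.40 and 9.43 FPKM in knockout cells, a log2 difference of 1.43 ± 0.43 (SE), unadjusted p 0.021 and adjusted p 0.201 (limma). Bbc3 had 1.08 and 1.76 against 2.56 and 2.42 FPKM, a log2 difference of 0.55 ± 0.16 (SE), unadjusted p 0.020 and adjusted p 0.196 (limma). In both genes the 2 knockout libraries were above the 2 wild-type libraries, and wild-type replicate 1 was lowest.

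Bnip3, a BH3-like gene induced by hypoxia and active in mitophagy, had 6.10 and 9.59 against 10.7 and 11.0 FPKM, adjusted p 0.327 (limma), with the same library lowest. Its relative Bnip3l, which acts in the removal of mitochondria, was higher, at 55.7 and 61.8 against 64.4 and 68.2 FPKM. Wild-type replicate 1 was also lowest for the summed erythroid and macrophage markers given above, and the part of those cells in the values of Pmaip1, Bbc3 and Bnip3 was not tested. Bad, a BH3-only gene controlled by growth factor signals, had 13.3 and 13.8 against 14.4 and 14.4 FPKM, and Bcl2l13, a mitophagy receptor, 5.74 and 5.45 against 6.22 and 6.55 FPKM. Bcl2l2, which encodes the anti-apoptotic BCL-W, had 0.725 and 1.21 against 0.975 and 1.26 FPKM, and Bcl2l12 had 2.16 and 2.45 against 2.51 and 1.90 FPKM. Bok, Bik and Hrk were listed at 0 in every library. In this list 7 of 8 differences were positive under each of 3 other scalings of the libraries, and 6 of 8 with GC content and length corrected, where Bad changed sign. Over all genes the shares were 39.5% to 50.4% under those scalings and 52.8% with that correction.

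Genes before and after the family in the death pathway were read from 6 lists of 57 genes, 49 of them tested. None passed, and 3 had an unadjusted p under 0.05, against 17.9% of all genes. Positive differences numbered 29 of 49, against 54.2% of all genes, and 17 of 49 with libraries scaled to a sum of 1000000 FPKM, against 39.5%. The genotypes did not overlap for 16 of 49, against 52.8% of all genes, and the median was 0.03 in log2. In the list of mitochondrial release and the apoptosome, 6 of 8 were positive, and 5 of 8 when so scaled. Apaf1, the scaffold of the apoptosome, had 32.9 and 26.8 against 34.6 and 36.4 FPKM, and Cycs, cytochrome c, 5.12 and 6.63 against 4.49 and 5.09 FPKM. The channel genes Vdac1 (30.3 and 31.9 against 33.9 and 33.6 FPKM) and Vdac2 (66.5 and 68.2 against 72.8 and 73.9 FPKM) had slightly higher values in knockout.

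Among the caspases, proteases of which only some carry out apoptosis, 7 of 8 differences were positive. That compares with 54.2% of all and 60.9% of protein-coding genes. Higher without overlap were 5 of 8, against 29.6% and 33.7%. The median was 0.10 in log2. Scaled to a sum of 1000000 FPKM, 5 of 8 were positive, against 39.5% of all genes. Casp6 had 0.997 and 1.08 against 1.58 and 1.34 FPKM, and Casp9, the initiator at the apoptosome, 6.56 and 6.58 against 7.36 and 7.83 FPKM. Casp8, the initiator at death receptors, had 15.6 and 15.0 against 16.7 and 18.5 FPKM. The lowest adjusted p of the list was 0.291 (limma).

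Among caspase inhibitors 3 of 8 differences were positive, against 54.2% of all genes. With libraries scaled to a sum of 1000000 FPKM it was 1 of 8, against 39.5%. Cflar, which encodes the caspase 8 inhibitor c-FLIP, had 59.9 and 63.3 FPKM in wild-type cells, against 50.5 and 53.6 FPKM in knockout cells, a log2 difference of -0.24 ± 0.08 (SE), unadjusted p 0.027 and adjusted p 0.217 (limma). Both knockout libraries were lower. Birc3, an inhibitor of apoptosis protein, had 74.3 and 84.0 against 68.8 and 75.4 FPKM, Birc6 22.0 and 16.8 against 16.2 and 18.1 FPKM, and Birc5, which also acts in cell division, 16.2 and 19.0 against 18.7 and 18.4 FPKM, all overlapping.

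Of death receptors and adaptors, 7 of 9 were positive, against 54.2% of all genes. With libraries scaled to a sum of 1000000 FPKM it was 4 of 9, against 39.5%. Tradd, the adaptor of the TNF receptor, had 3.84 and 4.22 FPKM in wild-type cells, against 5.66 and 5.23 FPKM in knockout cells, a log2 difference of 0.36 ± 0.09 (SE), unadjusted p 0.011 and adjusted p 0.164 (limma). Fadd, the adaptor that recruits caspase 8, had 1.08 and 0.875 against 1.20 and 1.23 FPKM, and Mlkl, the executioner of necroptosis, 0.957 and 0.865 against 1.21 and 1.03 FPKM. Tnfrsf10b, the mouse TRAIL receptor, had 1.18 and 0.797 against 1.10 and 1.16 FPKM.

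In the list drawn up for the supply and turnover of MCL1, 1 of 6 differences was positive, against 54.2% of all genes. The list holds both genes that supply MCL1 and genes that act in its breakdown, so its counts give no single direction for MCL1. The count was 0 of 6 with libraries scaled to a sum of 1000000 FPKM, against 39.5%. With GC content and length corrected it was 2 of 6, against 52.8%. Cdk9, the kinase that keeps short-lived RNAs such as that of Mcl1 in transcription, had 37.9 and 39.3 FPKM in wild-type cells, against 32.3 and 33.7 FPKM in knockout cells, a log2 difference of -0.22 ± 0.07 (SE), unadjusted p 0.028 and adjusted p 0.222 (limma). Fbxw7, part of a ubiquitin ligase for MCL1, had 4.11 and 3.89 against 3.71 and 3.65 FPKM. Trib1, counted in the list though no action on MCL1 is shown here, had 67.5 and 84.5 against 67.1 and 74.3 FPKM. Gsk3b, a kinase that marks MCL1 for breakdown, had 29.9 and 25.1 against 25.4 and 27.1 FPKM.

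In the list drawn up for survival signals, 5 of 10 were positive, against 54.2% of all genes. The list mixes genes that act in unlike ways, such as Foxo3 and Il1r2 below, so its counts give no single direction for survival. The count was 2 of 10 with libraries scaled to a sum of 1000000 FPKM, against 39.5%. With GC content and length corrected it was 1 of 10, against 52.8%. None of the 10 separated the genotypes, against 52.8% of all genes. The NF-kB subunit gene Relb had 4.76 and 5.69 against 5.45 and 6.51 FPKM, Foxo3, a transcription factor that can drive Bcl2l11, 42.0 and 36.4 against 36.5 and 36.7 FPKM, and Csf2rb, the shared receptor chain for GM-CSF, 170 and 161 against 155 and 162 FPKM. Il1r2, the decoy receptor of interleukin 1, had 242 and 428 against 267 and 298 FPKM, with wild-type replicate 2 apart from the other 3 libraries.

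**Figure D5:**
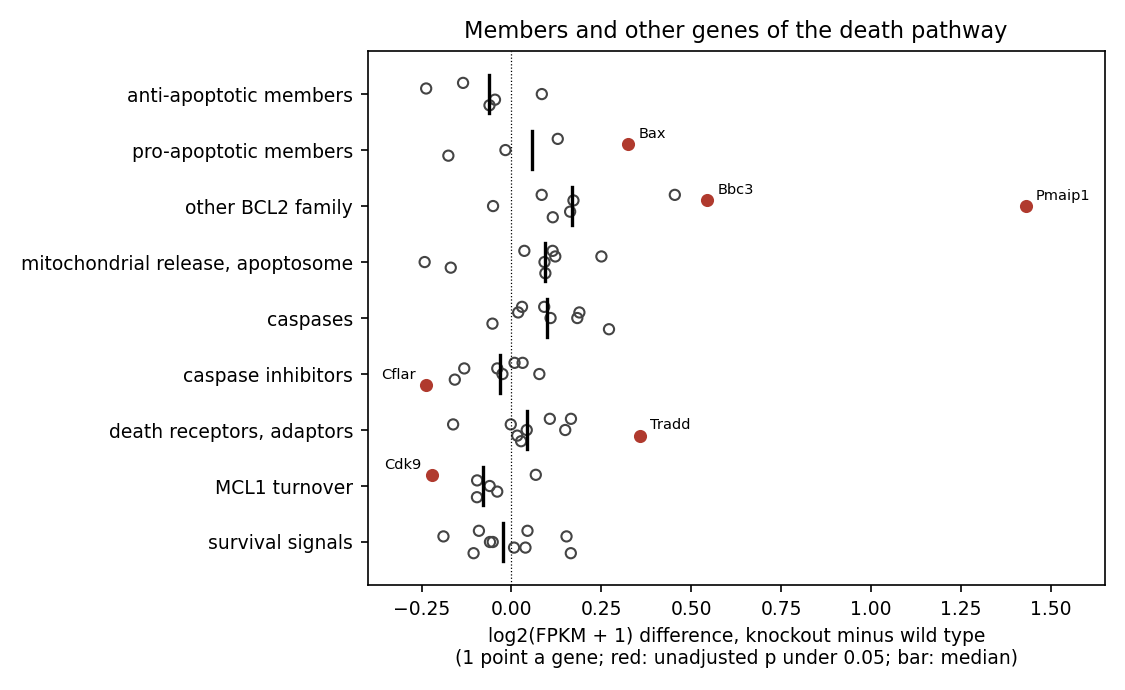
Difference in log2(FPKM + 1), knockout minus wild type, of each tested member and of each tested gene of the 7 other lists (1 point a gene); bars are medians and red points have an unadjusted p under 0.05. The 6 red points are Bax, Bbc3, Pmaip1, Cflar, Tradd and Cdk9, and none of them passed after adjustment over all genes.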

How the data were processed

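RNA of sorted neutrophils was measured in 4 libraries. The authors deposited 1 table with FPKM per transcript and library, per the file headers. Beside FPKM, the deposited columns include a fold for each transcript with its p-value and its q-value. The deposited fold equalled 2 raised to the difference of mean log2(FPKM + 1), knockout minus wild type, within 6.4e-14 in log2, and none of these values was used as a result. The submitters' processing notes name StringTie 2.1.4, HISAT2 2.1.0, R 3.6.1, SAMtools 1.9 and GRCm38. Their roles, the annotation release and the strand setting were not given in the sources used here. Ribosomal RNA had been depleted, per the labels' protocols. FPKM is a share of the library, reads of shared exons are assigned to transcripts by estimation, and a value of 0 can be a failed estimate.

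FPKM was summed per gene and tested as log2(FPKM + 1), which understates differences of low genes, with limma 3.58.1 in R 4.3.3 (trended empirical Bayes, no covariates, 2 against 2 libraries). Genes or transcripts averaging 1 FPKM or more in wild type or knockout entered the fit. The threshold was an adjusted p (Benjamini-Hochberg, over all rows of the fit) under 0.05. The fit was tested on simulated data. No counts were at hand, so no counting interval is given, and relative depth came from the smallest steps of low values. Positions and sequences came from GENCODE M21 on GRCm38, which held 114332 of 115220 transcripts and 47310 of 47729 genes.

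Named genes were the 10 members, every tested transcript of a member, every tested gene of the list of other BCL2 family genes, and up to 4 tested genes with the lowest unadjusted p in each pathway list, of which 1 is not reported here. Fas, Csf3r, Bok, Bik, Hrk, single marker genes and genes overlapping a member fall outside this rule and were chosen after their values were seen. The members and lists were chosen with earlier results of these data known. Alternatives changed the pseudocount, filter, scaling, moderation, block, transcripts summed and libraries, and a correction for GC content and length was added after seeing the data.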

Additional observations from a re-analysis of the deposited data

How the results depend on the processing

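The number of genes past the threshold was 35 (16 higher and 19 lower in knockout). It was 0 with no filter on low values (3032 genes at an unadjusted p under 0.05), 16 with a filter at 5 FPKM, 17 with libraries scaled to 1000000 FPKM over protein-coding genes (10 higher and 7 lower), and 15 with GC content and length corrected. Scaled to a sum of 1000000 FPKM it was 47 (17 higher and 30 lower). Leaving out 1 library gave 0 to 2938 genes, 0 to 1 transcript against 47 with all libraries, and 0 to 5 members. The cause was not tested, beyond fewer libraries or genes in each fit. In the other alternatives run, 0 members passed.

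The replicate block, fitted for genes, gave 34 genes (18 higher and 16 lower in knockout) and 0 members, and did not change the call of the summed Bcl2a1 copies. The labels link same-numbered libraries by the number alone. The correlation across genes of same-numbered deviations was 0.0065, which does not settle whether these libraries shared a preparation.

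Directions changed as follows, in log2. With protein-coding transcripts only the difference was -0.32 for Bak1, 0.19 for Bcl2l11 and 0.018 for Bid, and with the highest transcript only it was -0.32, 0.43 and 0.050. Leaving out 1 library gave -0.32 to 0.051 for Bcl2a1a, -0.73 to 0.26 for Bcl2a1b, -0.017 to 0.19 for Bcl2a1d, -0.59 to 0.24 for the summed copies, -0.22 to 0.13 for Bcl2l1, -0.070 to 0.037 for Bcl2l11, -0.26 to 0.14 for Mcl1 and -0.26 to 0.085 for the anti- to pro-apoptotic ratio. Bax was positive (0.16 to 0.38) and its call was the same in all alternatives but those without a wild-type library. The wild-type libraries were shallower, so the precision of low members such as Bcl2 and the Bcl2a1 copies is limited there.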

Other observations

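Some genes around the family, chosen after their values were seen, had wild-type replicate 2 highest and wild-type replicate 1 lowest. Fas, the death receptor, had 14.1 and 23.1 FPKM in wild-type cells, against 15.3 and 16.8 FPKM in knockout cells. Csf3r, the receptor of the granulocyte growth factor G-CSF, had 554 and 842 FPKM in wild-type cells, against 591 and 682 FPKM in knockout cells. Il1r2, Bcl2a1b and Mcl1, given above, had the same order. Bcl2l1 went the other way, with wild-type replicate 1 highest and wild-type replicate 2 lowest. The share of all genes with either order was not counted.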
